A study of Mus musculus with 4 samples.

Results

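The guidance genes described here are the 41 genes of the semaphorin, plexin, neuropilin, Slit, Robo and srGAP families, picked by symbol from the 55335 genes of the deposited table. They were picked with earlier results of the same genotype comparison known, so their differences between genotypes are given as a description and were not tested as a list. RNA of whole mouse testes at postnatal day 14 was measured by poly(A) RNA sequencing in 4 libraries, of which 2 carry the label Znhit1_KO and 2 the label CTRL. Znhit1 encodes a subunit of the SRCAP complex, a remodeller that exchanges H2A for the variant H2A.Z, and the study asks how its loss affects gene expression in male meiosis. The labels give the source as testis, while the design text speaks of germ cells, and defining markers of Sertoli, Leydig, peritubular, endothelial and germ cells were all detected. No source used here gives the strain, the allele, any Cre driver or the number of animals per library. The 2 libraries of a group are labelled as independent biological replicates, and all statements of spread rest on 2 libraries per group.

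Semaphorins are secreted or membrane-bound proteins that steer growing axons and migrating cells, mostly by repulsion. They bind plexins, and secreted class 3 semaphorins usually need a neuropilin as co-receptor beside a class A plexin. Slits are large secreted proteins that bind Robo receptors, whose cytoplasmic tails recruit srGAPs, proteins that switch off small GTPases and bend membranes. Outside the nervous system the same proteins act in blood vessel growth, immune cells and epithelial shape, and a whole testis mixes somatic and germ cells. In such bulk samples, fewer cells of a type and less RNA per cell cannot be told apart.

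The estimated counts summed to between 129531714 and 157790457 per library. Znhit1 itself was listed at 7.996 and 5.24 TPM (the authors' length-adjusted transcript abundance) in Znhit1_KO, against 55.4 and 90.2 TPM in CTRL. Its log2 change, Znhit1_KO over CTRL, was -3.22 (SE 0.403, edgeR), in the direction of the labels. All 41 guidance genes passed the filter on low counts and were among the 24116 genes tested. The edgeR quasi-likelihood test with Benjamini-Hochberg adjustment at 0.05 called 0 of the 24116 genes (0%), with 2590 at an unadjusted p under 0.05. Among the 41 genes it called 0, with 4 at an unadjusted p under 0.05. limma-voom also called 0 of all genes, while DESeq2 called 1024 (4.01% of the genes it gave an adjusted p), 2 of them guidance genes. As shares of the 41, these 2 and the 4 above are close to the shares of all genes. The 2 that DESeq2 called were Srgap1 and Plxna4, which the authors' deposited table also marks, both as higher in Znhit1_KO. It marks 0 guidance genes as lower. That table is not a separate source of support, since its log2 changes for Srgap1 and Plxna4, 1.34 and 1.15, are those of DESeq2 run here. It marks 70 of its 25236 genes higher (0.277%) and 812 lower (3.22%).

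Guidance genes stood mostly higher in Znhit1_KO testes, by small amounts. Of the 41, 36 had a log2 change above 0, against 53.1% of all genes tested, and their median was 0.37, against 0.03 over all genes tested. In CPM, the estimated counts scaled to library size, 22 stood above both CTRL libraries in each Znhit1_KO library, where 21.8% of all genes did. Only Sema4c, Sema4f and Plxna2, 3 of the 41, stood below both in each, where 21.3% of all genes did. The groups overlapped for the other 16. Since the genes were picked with this comparison known, nothing follows from these counts about the families as a whole. The Sertoli cell marker list moved with them: 15 of its 20 genes were higher in both Znhit1_KO libraries, with a median log2 change of 0.38. Medians were also above 0 for Leydig (0.37), stromal (0.36), neuron and Schwann (0.35), macrophage (0.63), endothelial (0.26) and red cell (0.98) markers. Peritubular, spermatogonial and spermatocyte markers had medians of 0.06, -0.0021 and -0.72. Only the Sertoli list was used for scaling. When the libraries were scaled to the summed counts of that list, the median of the 41 guidance genes was 0.0031, 4 were higher in both Znhit1_KO libraries and 10 were lower. Under that scaling the median of all genes tested was -0.31, with 5.59% of them higher and 44.1% lower in both Znhit1_KO libraries.

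**Figure D1:**
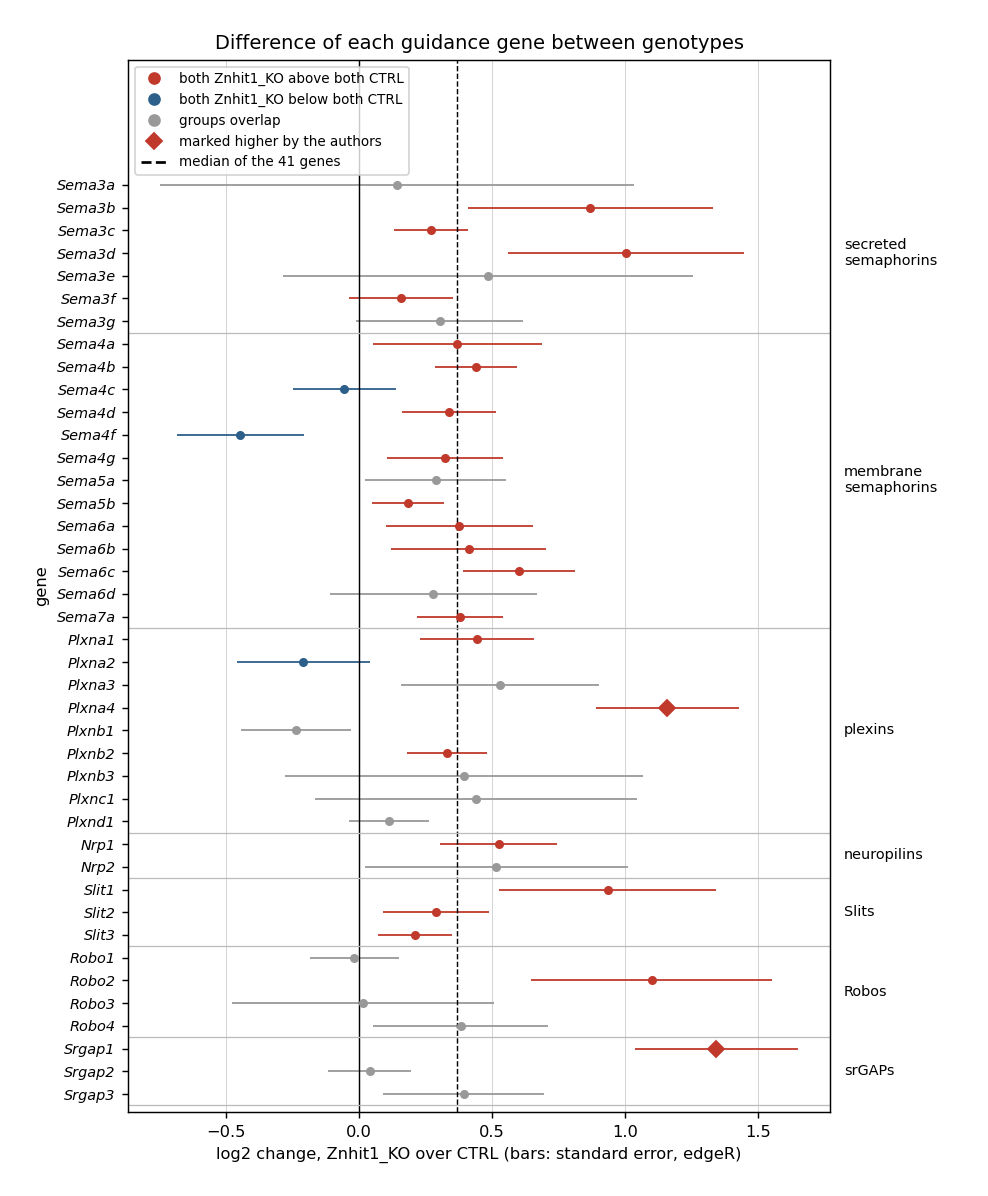
Log2 change of each of the 41 guidance genes, Znhit1_KO over CTRL, on the x axis, with 1 gene per row grouped by role; bars are standard errors of the edgeR fit to 2 libraries per group. Most points lie right of 0 around the dashed median of 0.37; Srgap1 and Plxna4, the diamonds marked higher by the authors, lie at 1.34 and 1.16, and Sema4f lies farthest left at -0.45.

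Srgap1 and Plxna4 are described first. Srgap1 encodes a Slit-Robo GTPase-activating protein that acts on Cdc42 below Robo receptors. It lies on chromosome 10 at chr10:121780991-122047315 (mm10, minus strand, ENSMUSG00000020121.15, protein-coding). It stood at 4.82 and 7.71 TPM in Znhit1_KO, against 2.56 and 2.21 TPM in CTRL, on estimated counts of 2206 and 3280 against 1021 and 931. Both Znhit1_KO libraries were above both CTRL libraries, with replicate 2 of Znhit1_KO the highest. The mean CPM in Znhit1_KO was 2.54 times that in CTRL, with a log2 change of 1.34 (SE 0.307). Without Znhit1_KO replicate 2 the log2 change was 0.88, and without Znhit1_KO replicate 1 it was 1.64; with Sertoli list scaling it was 1.03. Markers of stromal fibroblasts were also highest in Znhit1_KO replicate 2, at a summed 807.0 TPM against 583.8 in Znhit1_KO replicate 1 and 541.2 and 516.6 in CTRL. The summed markers of Leydig cells, macrophages, endothelium and red cells were also highest in that library. The part of any of these cell types in the Srgap1 difference was not tested. The annotated gene Gm48804 shares 131 bases on the same strand with Srgap1 exons, 1.44% of their length, and had 164 and 374 estimated counts in Znhit1_KO against 106 and 57 in CTRL.

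The paralogues of Srgap1 were more abundant, and their genotypes overlapped. Srgap2, which promotes membrane protrusions and slows neuronal migration, stood at 49.6 and 51.2 TPM in Znhit1_KO and 59.7 and 39.0 TPM in CTRL. Its log2 change was 0.04 (SE 0.156), and the CTRL libraries enclosed both Znhit1_KO libraries. Srgap3, which acts on Rac1, stood at 76.1 and 46.3 TPM in Znhit1_KO and 57.3 and 33.9 TPM in CTRL. In both genotypes its replicate 1 library was the higher, the groups overlapped, and the log2 change was 0.39 (SE 0.304). Srgap1 was thus the least abundant of the family in each library and the member with the widest gap between genotypes. The windows around the annotated starts of these paralogues are shown because 1 member of the family stood apart; each runs from 250 bases before to 50 bases after the start (RefSeq, GRCm38.p6, the same coordinates as mm10), 5′ to 3′ on the gene's strand, with each CG dinucleotide in capitals.
Srgap1: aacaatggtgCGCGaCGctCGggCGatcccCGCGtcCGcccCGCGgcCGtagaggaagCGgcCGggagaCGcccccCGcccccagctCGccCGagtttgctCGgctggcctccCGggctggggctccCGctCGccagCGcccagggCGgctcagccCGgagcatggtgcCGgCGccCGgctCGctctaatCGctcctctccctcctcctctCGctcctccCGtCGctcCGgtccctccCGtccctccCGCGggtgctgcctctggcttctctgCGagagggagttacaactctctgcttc
Srgap2: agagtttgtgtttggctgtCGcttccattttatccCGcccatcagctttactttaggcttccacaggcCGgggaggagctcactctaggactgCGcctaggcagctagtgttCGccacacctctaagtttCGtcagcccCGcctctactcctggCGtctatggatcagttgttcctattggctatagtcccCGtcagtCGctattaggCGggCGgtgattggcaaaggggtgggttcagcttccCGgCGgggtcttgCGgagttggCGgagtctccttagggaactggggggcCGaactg
Srgap3: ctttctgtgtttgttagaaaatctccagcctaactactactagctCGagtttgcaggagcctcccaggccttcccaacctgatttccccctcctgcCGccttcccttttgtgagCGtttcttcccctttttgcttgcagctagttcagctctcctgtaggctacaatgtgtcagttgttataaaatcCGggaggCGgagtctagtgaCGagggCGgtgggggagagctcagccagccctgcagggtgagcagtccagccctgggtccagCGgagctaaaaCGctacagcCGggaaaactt
The Srgap1 window, chr10:122047266-122047565 on the minus strand, held 37 CG dinucleotides, more than 94.4% of the 32851 windows of the table. The Srgap2 window, chr1:131527312-131527611 on the minus strand, held 17, more than 68.6% of windows. The Srgap3 window, chr6:112947217-112947516 on the minus strand, held 10, more than 56.5% of windows. The motif TATAAA, searched on both strands, was in the Srgap3 window only of these paralogues and in 13.6% of all windows. Windows were found for 35 of the 41 guidance genes, 48 in all, with a median of 16 CG dinucleotides against 7 over all windows. CG reads the same on both strands, and 94.6% of all windows hold at least 1. These letters describe the windows, and no binding or histone data were set beside them.

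Plxna4, a class A plexin that serves Sema3a with neuropilin 1 and binds Sema6 ligands directly, lies at chr6:32144268-32588192 (mm10, minus strand, ENSMUSG00000029765.12, protein-coding). It stood at 1.45 and 1.49 TPM in Znhit1_KO, against 0.786 and 0.514 TPM in CTRL. The Znhit1_KO libraries lay close together and above both CTRL libraries. The mean CPM in Znhit1_KO was 2.23 times that in CTRL, with a log2 change of 1.16 (SE 0.270), and the log2 change lay between 0.82 with Sertoli list scaling and 1.37 without CTRL replicate 1. Its length is long relative to its level: 1161 and 1054 estimated counts in Znhit1_KO against 514 and 370 in CTRL lie behind these TPM values.

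Among the other plexins, Plxna1 was the most abundant guidance gene in these testes. Plxna1, a receptor for several class 3 and class 6 semaphorins, stood at 260.7 and 202.5 TPM in Znhit1_KO and 201.6 and 133.1 TPM in CTRL. Its log2 change was 0.44 (SE 0.214), 0.22 without Znhit1_KO replicate 1 and 0.25 without CTRL replicate 2; on the CPM scale both Znhit1_KO libraries were above both CTRL libraries, although Znhit1_KO replicate 2 and CTRL replicate 1 were nearly level in TPM. The antisense gene Gm26811 covers 10.7% of its exon bases and had 875 and 406 estimated counts in Znhit1_KO against 474 and 153 in CTRL, while Plxna1 had between 66968 and 145849 per library. Plxnb2, receptor for Sema4c and Sema4g, was the next plexin, at 152.3 and 146.0 TPM in Znhit1_KO and 113.3 and 114.8 TPM in CTRL. Here the spread within each genotype was narrow in TPM. In CPM the libraries stood at 379.2 and 369.1 in Znhit1_KO and 274.6 and 320.2 in CTRL. The log2 change of 0.33 (SE 0.152) became -0.0079 with Sertoli list scaling. Plxnd1, the receptor of Sema3e in vessels, had a log2 change of 0.11 (SE 0.149) and overlapping groups at 22.6 to 29.5 TPM.

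Plxnc1, receptor of Sema7a, varied far more within each genotype than between them. It stood at 78.0 and 30.3 TPM in Znhit1_KO and 59.9 and 19.6 TPM in CTRL, so that the replicate 1 library was the higher in both. The CPM of replicate 1 was 2.55 times that of replicate 2 in Znhit1_KO and 2.68 times in CTRL, and the log2 change between genotypes was 0.44 (SE 0.605). Plxnb3, at 0.454 and 0.185 TPM in Znhit1_KO and 0.326 and 0.128 in CTRL, had the same order of libraries, and so did Sema6d at 22.7 and 11.4 TPM in Znhit1_KO and 17.3 and 8.76 in CTRL. The genotypes of Plxnc1, Plxnb3 and Sema6d overlapped, although within each replicate number the Znhit1_KO library was the higher in CPM. Without either Znhit1_KO replicate 1 or CTRL replicate 2 the sign of each of these log2 changes turned negative. Plxna3 stood at 8.82 and 6.31 TPM in Znhit1_KO and 6.69 and 2.94 in CTRL, and is with Plxnb3 on the X chromosome, which holds 2 of the guidance genes. Plxna2, a receptor for Sema6a, and Plxnb1, the receptor for Sema4d, were the plexins with log2 changes below 0, at -0.21 (SE 0.250) and -0.24 (SE 0.205), both smaller than their standard errors or close to them.

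**Figure D2:**
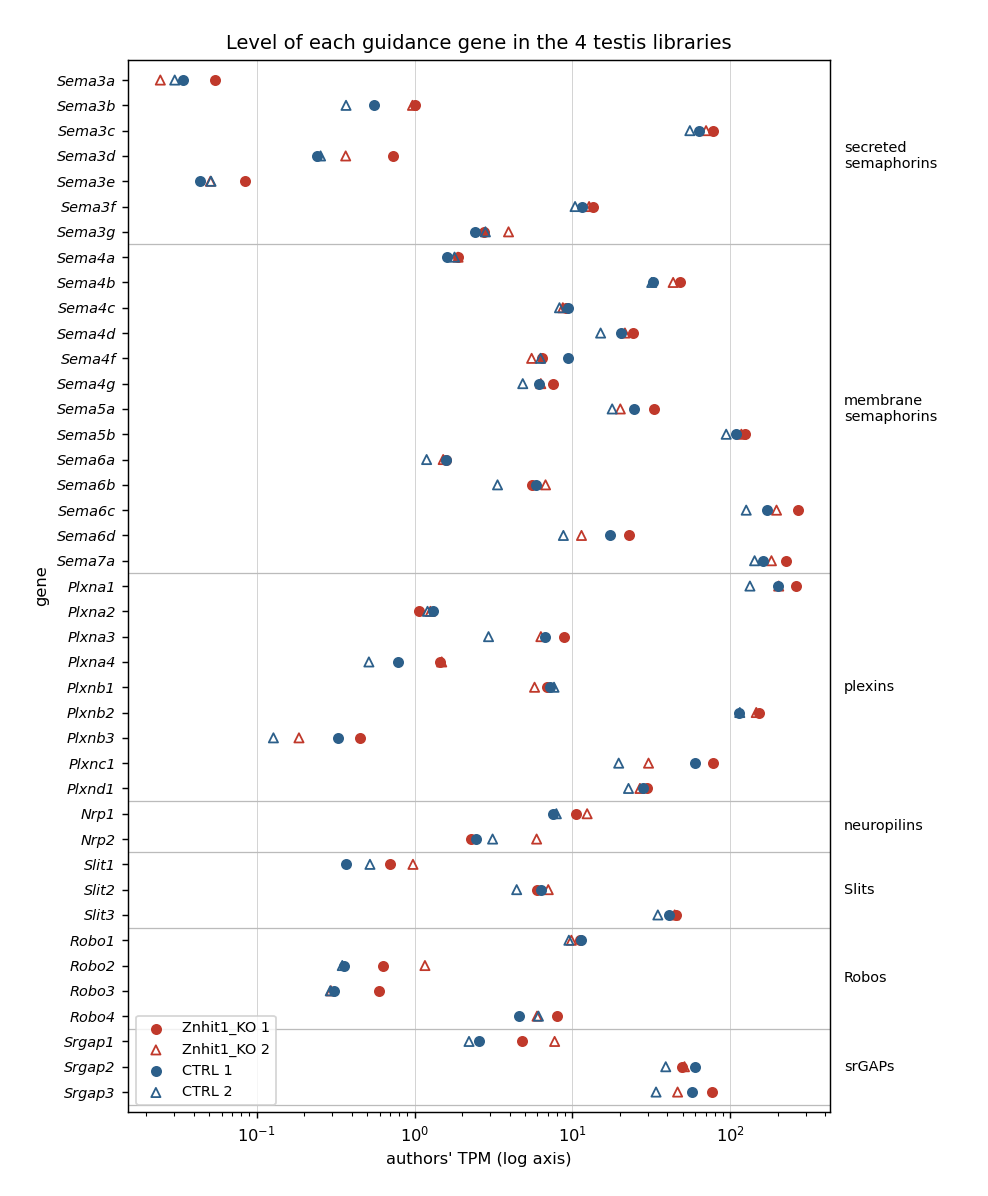
Level of each of the 41 guidance genes in the 4 libraries as the authors' TPM on a log axis, with 1 gene per row grouped by role; red marks Znhit1_KO, blue CTRL, circles replicate 1 and open triangles replicate 2. Levels run from a mean of 0.0357 TPM for Sema3a to 199.5 TPM for Plxna1, and in Plxnc1, Plxnb3 and Sema6d circles lie right of triangles in both colours.

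The semaphorin and Slit ligands covered a wide range of levels. Averaged over the 4 libraries, 5 guidance genes reached 100 TPM, of which Sema6c, Sema7a and Sema5b are membrane-bound semaphorins and Plxna1 and Plxnb2 receptors. In all, 17 genes reached 10 TPM and 8 stayed under 1 TPM. Summed over the 13 membrane-bound semaphorins the level was 777.8 and 623.1 TPM in Znhit1_KO and 570.8 and 461.9 in CTRL, and over the 7 secreted ones 95.5 and 88.3 TPM in Znhit1_KO and 78.2 and 69.3 in CTRL. In both sums each Znhit1_KO library was above each CTRL library.

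Sema6c, a transmembrane class 6 semaphorin, stood at 268.5 and 196.2 TPM in Znhit1_KO and 171.0 and 126.1 TPM in CTRL. With a log2 change of 0.60 (SE 0.211) it differed the most among the 5 abundant genes, and its log2 change was 0.24 with Sertoli list scaling and 0.33 without Znhit1_KO replicate 1. Sema7a, the GPI-anchored semaphorin that also binds integrins, stood at 225.3 and 182.2 TPM in Znhit1_KO and 162.0 and 142.5 in CTRL, with a log2 change of 0.38 (SE 0.162), and 0.20 without Znhit1_KO replicate 1. The values of Sema6c and Sema7a interleave, so their order by level did not hold beyond the spread between libraries. Sema5b, a class 5 semaphorin with thrombospondin repeats, had log2 change 0.19 (SE 0.135), and its class partner Sema5a 0.29 (SE 0.266). Sema5b did not overlap between genotypes in CPM, whereas Sema5a did, at 32.7 and 20.1 TPM in Znhit1_KO and 24.4 and 17.9 in CTRL.

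In class 4 the members went different ways. Sema4b stood at 48.0 and 43.4 TPM in Znhit1_KO and 32.6 and 31.8 TPM in CTRL, with a log2 change of 0.44 (SE 0.154). Sema4d, known as CD100 in lymphocytes and a ligand of plexin B1, had a log2 change of 0.34 (SE 0.178), Sema4a, which acts in immune cells, 0.37 (SE 0.317) and Sema4g 0.32 (SE 0.217). Each of these 4 was higher in both Znhit1_KO libraries. Sema4f, at 6.37 and 5.51 TPM in Znhit1_KO and 9.37 and 6.28 in CTRL, had the lowest log2 change of the 41 genes at -0.45 (SE 0.239), and -0.24 without CTRL replicate 1. Its CPM values did not overlap between genotypes, but the TPM values overlapped. Sema4c, a ligand of plexin B2, was level at -0.05 (SE 0.195), although its CPM values happened not to overlap. Class 6 beside Sema6c held Sema6a, a ligand of plexins A2 and A4, at 1.58 and 1.52 TPM in Znhit1_KO and 1.59 and 1.19 in CTRL, and Sema6b at 5.54 and 6.75 TPM in Znhit1_KO and 5.90 and 3.35 in CTRL. Their log2 changes were 0.38 (SE 0.276) and 0.41 (SE 0.290), with no overlap in CPM and overlap in TPM.

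Of the secreted semaphorins, Sema3c was the main one at 77.4 and 70.2 TPM in Znhit1_KO and 63.5 and 55.4 TPM in CTRL, with a log2 change of 0.27 (SE 0.140). Sema3f, which signals through neuropilin 2, followed at 13.4 and 12.7 TPM in Znhit1_KO and 11.4 and 10.4 in CTRL (log2 change 0.16, SE 0.194). All 7 secreted semaphorins had a log2 change above 0, and Sema3b, Sema3c, Sema3d and Sema3f did not overlap between genotypes. Sema3d had the widest gap, with 247 and 128 estimated counts in Znhit1_KO against 78 and 85 in CTRL and a log2 change of 1.00 (SE 0.444); it lay between 0.54 without Znhit1_KO replicate 1 and 1.30 without Znhit1_KO replicate 2. Sema3b, at 1.01 and 0.970 TPM in Znhit1_KO and 0.549 and 0.368 in CTRL, had a log2 change of 0.87 (SE 0.461). Sema3a, the founding repulsive semaphorin, and Sema3e had between 8 and 35 estimated counts in any library, too few to show a difference of this size. Sema3d, Sema3a, Sema3e and Sema3c lie in this order on chromosome 5, with gaps of 0.536, 0.423 and 3.32 Mb between them. Neighbourhood did not go with level, since Sema3c averaged 66.7 TPM and the other three between 0.0357 and 0.398 TPM.

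The neuropilins, co-receptors of class 3 semaphorins that also bind vascular growth factors of the VEGF family, had log2 changes of 0.53 (SE 0.220) for Nrp1 and 0.52 (SE 0.493) for Nrp2. Nrp1 stood at 10.6 and 12.4 TPM in Znhit1_KO and 7.54 and 7.91 TPM in CTRL. In CPM it stood at 14.94 and 17.65 in Znhit1_KO and 10.3 and 12.34 in CTRL. Nrp2 stood at 2.26 and 5.93 TPM in Znhit1_KO and 2.45 and 3.12 TPM in CTRL, so that its whole difference came from Znhit1_KO replicate 2, and without that library its log2 change was negative. Endothelial markers, in which neuropilins are also expressed, summed to 116.2 and 133.5 TPM in Znhit1_KO and 96.6 and 103.3 TPM in CTRL, with 3 of 12 genes higher in both Znhit1_KO libraries and none at 0; their part in the neuropilin values was not tested.

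All 3 Slit genes were higher in both Znhit1_KO libraries in CPM. Slit3 was the main ligand, at 45.0 and 44.4 TPM in Znhit1_KO and 40.7 and 34.7 TPM in CTRL, with a log2 change of 0.21 (SE 0.139). Slit2 had a log2 change of 0.29 (SE 0.200) at 5.995 and 7.03 TPM in Znhit1_KO and 6.30 and 4.43 in CTRL, where the TPM values overlapped. Slit1, best known from the nervous system, was low, at 0.697 and 0.977 TPM in Znhit1_KO and 0.367 and 0.522 TPM in CTRL, with 237 and 306 estimated counts against 107 and 147. Its log2 change of 0.93 (SE 0.408) was the largest of the Slits, and was 0.60 without Znhit1_KO replicate 2.

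Robo1 was the most abundant Robo receptor in both genotypes, with overlapping groups at 11.1 and 9.84 TPM in Znhit1_KO and 11.3 and 9.49 TPM in CTRL (log2 change -0.02, SE 0.167). Robo2, its neighbour on chromosome 16 at a gap of 0.846 Mb, stood at 0.627 and 1.16 TPM in Znhit1_KO, against 0.358 and 0.348 TPM in CTRL, on estimated counts of 221 and 394 against 133 and 127. Both Znhit1_KO libraries were above both CTRL libraries and Znhit1_KO replicate 2 was the highest, as for Srgap1. The log2 change of Robo2 was 1.10 (SE 0.453), and 0.47 without Znhit1_KO replicate 2. Robo4, the endothelial member, had overlapping groups at 7.97 and 5.97 TPM in Znhit1_KO and 4.59 and 6.09 in CTRL. Robo3, which acts in axons that cross the midline, had between 52 and 86 estimated counts per library and a log2 change of 0.02 (SE 0.492). Robo3 and Robo4 end 553 bases apart on opposite strands of chromosome 9.

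**Figure D3:**
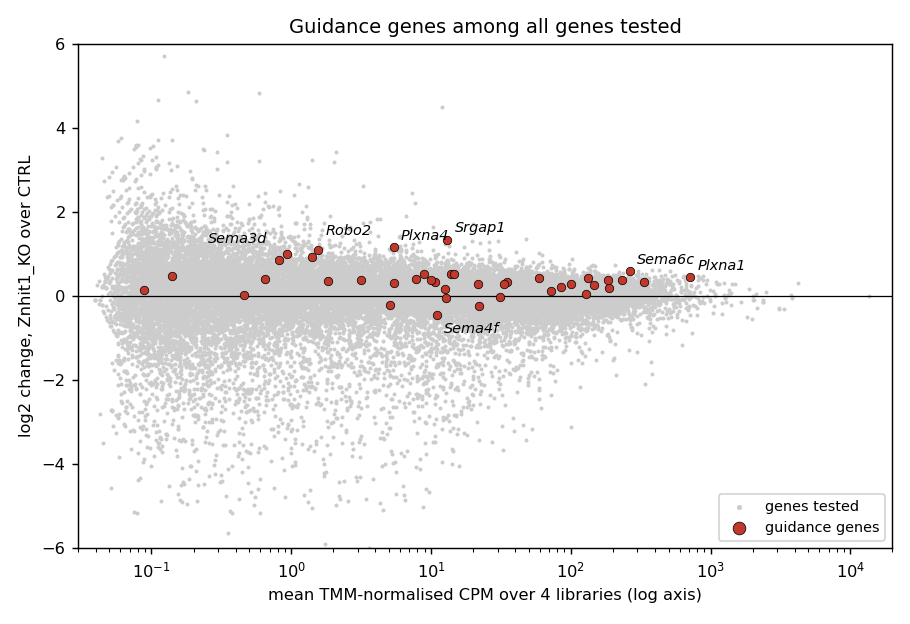
Log2 change, Znhit1_KO over CTRL, against mean normalised CPM on a log axis for the genes tested (grey) and the 41 guidance genes (red); 139 genes lie outside the plotted range. Guidance genes lie in a narrow band mostly above 0 at every level, while the long lower tail of all genes, below -2, holds none of them.

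Marker lists of testis cell types were set beside the guidance genes in the same libraries. Sertoli markers summed to 15389 and 13422 TPM in Znhit1_KO and 11429 and 10234 TPM in CTRL, with Clu at 7048 and 6055 TPM in Znhit1_KO and 5231 and 5024 TPM in CTRL. The median log2 CPM of the guidance genes, relative to the mean of the 4 libraries, was 0.23 and 0.06 in Znhit1_KO and -0.08 and -0.18 in CTRL. The Sertoli list had 0.30 and 0.05 in Znhit1_KO and -0.16 and -0.20 in CTRL, the same order of the libraries. Spermatocyte markers ran the other way, with -0.52 and -0.20 in Znhit1_KO and 0.06 and 0.59 in CTRL. Of the 17 genes, 12 were lower in both Znhit1_KO libraries, 4 of them marked lower by the authors. The authors mark 1 other gene of this list higher. The summed level of the list was 2204 and 3281 TPM in Znhit1_KO and 3499 and 5260 TPM in CTRL. Leydig, stromal, macrophage and endothelial lists had their highest median in Znhit1_KO replicate 2, with 6 of 12, 8 of 12, 4 of 12 and 3 of 12 genes higher in both Znhit1_KO libraries, where 21.8% of all genes tested were. The endothelial count is close to that share. The authors' deposited table marks 2 Leydig genes higher and 1 macrophage gene lower. Log2 changes reached 2.62 in the Leydig list and -1.36 in the macrophage list. The Leydig list summed to 518.3 and 570.2 TPM in Znhit1_KO and 426.0 and 397.1 in CTRL, and the macrophage list to 74.2 and 121.5 TPM in Znhit1_KO and 67.9 and 87.3 in CTRL. Peritubular myoid markers summed to 1299 and 1098 TPM in Znhit1_KO and 1164 and 1086 in CTRL, with overlapping groups. Spermatogonial markers summed to 989.6 and 1059 TPM in Znhit1_KO and 1121 and 1075 TPM in CTRL, slightly below CTRL in both Znhit1_KO libraries, while 10 of the 13 genes overlapped in CPM. Markers of neurons and Schwann cells, the tissue in which guidance genes are best known, summed to 343.8 and 233.5 TPM in Znhit1_KO and 265.9 and 173.3 TPM in CTRL, mostly Tubb3, with 4 of 12 higher in both Znhit1_KO libraries. Red cell genes differed widely between the libraries of each genotype, at 69.8 and 839.1 TPM in Znhit1_KO and 57.0 and 342.8 TPM in CTRL. All 5 red cell genes tested overlapped between genotypes, although all 5 had a log2 change above 0, with a median of 0.98. The part of these cell types in the guidance gene values was not tested. The Sertoli list scaling given above cannot test it. The median log2 change was 0.38 for that list and 0.37 for the guidance genes. Scaling to the list thus brings genes with a like change near 0, whatever the cause.

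**Figure D4:**
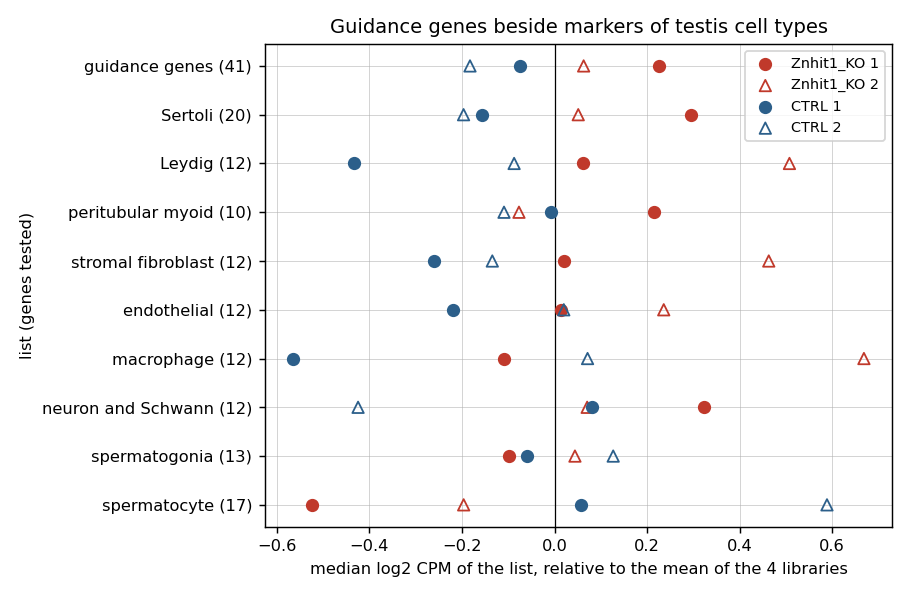
Median log2 CPM of the guidance genes and of 9 marker lists in each library, relative to the mean of the 4 libraries, with 1 list per row and the number of genes tested in brackets; red marks Znhit1_KO, blue CTRL, circles replicate 1 and open triangles replicate 2. The guidance and Sertoli rows have the same order of libraries, Znhit1_KO replicate 1 highest and CTRL replicate 2 lowest, and the spermatocyte row has the reverse order.

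Other genes of the same pathways showed small differences of the same sign. In 32 intracellular effectors of semaphorin receptors, 31 had a log2 change above 0, the median was 0.30, and 17 were higher and 0 lower in both Znhit1_KO libraries, where 21.8% and 21.3% of all genes tested were. The most abundant were Cfl1, the actin-severing protein cofilin, Rhoa and Ptk2, with log2 changes of 0.13 (SE 0.156), 0.14 (SE 0.164) and 0.03 (SE 0.148). Fes, a tyrosine kinase that acts below Sema3a receptors, is marked higher in the authors' deposited table and stood at 4.65 and 4.59 TPM in Znhit1_KO against 2.15 and 1.91 TPM in CTRL (log2 change 1.07, SE 0.268). In 19 partners and effectors of Slit-Robo signalling the median was 0.13, with 7 higher and 2 lower in both Znhit1_KO libraries, against the same shares of all genes. Of these, Dag1, dystroglycan, which binds Slits, had a log2 change of 0.33 (SE 0.141), Enah, an actin regulator that binds Robo, 0.30 (SE 0.175), and Cdc42, the target of Srgap1, 0.05 (SE 0.150).

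Netrin and ephrin genes, which form the other classical guidance systems, were set beside them. Of 15 netrin pathway genes 14 were tested, with a median log2 change of 0.36, 9 higher and 1 lower in both Znhit1_KO libraries, against 21.8% and 21.3% of all genes tested. Neo1, a netrin and RGM receptor, had a log2 change of 0.15 (SE 0.140), Ntn4 0.39 (SE 0.220) and Rgma 0.26 (SE 0.212). Of 22 ephrin and Eph genes 21 were tested, with a median of 0.12, 6 higher and 4 lower, close to those shares of all genes. Efnb2, a membrane ligand of vessels and guidance, stood at 33.9 and 28.4 TPM in Znhit1_KO and 18.4 and 18.7 TPM in CTRL (log2 change 0.70, SE 0.178). Efnb1 had a log2 change of 0.45 (SE 0.143) and Ephb4 0.28 (SE 0.213). Epha10 was the 1 gene of these lists that the authors' deposited table marks lower, at 0.812 and 1.19 TPM in Znhit1_KO and 2.18 and 4.64 TPM in CTRL (log2 change -1.83, SE 0.531). The edgeR test called 0 genes of these 4 lists over all genes.

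Count and TPM together give the transcript length that the authors' quantification assigned to a gene in each library, since a TPM is a count per length. The scale was set per library on 1854 genes with 1 annotated transcript. A change in this length means that another mixture of isoforms was assigned, not another level. It was computed for the 33 guidance genes with several annotated transcripts and a mean estimated count of at least 200. For 21 of them the 4 libraries lay within 5% of each other; Plxna1 was assigned 9018 and 9029 bases in Znhit1_KO and 9020 and 9022 in CTRL. The median range over the 33 was 2.99%, against 3.56% over the 12624 genes computed in this way. Sema6a was assigned 5987 and 5770 bases in Znhit1_KO and 4794 and 5071 in CTRL, and Sema4a 2838 and 2710 in Znhit1_KO and 2441 and 2202 in CTRL. Both were longer in both Znhit1_KO libraries, by 19.2% and 19.5%, as were 13.4% of all genes computed, by any amount. Robo2 was assigned 5678 and 6155 bases in Znhit1_KO and 7238 and 6536 in CTRL, a mean difference of -14.1%, and Plxna3 5865 and 5785 in Znhit1_KO and 6219 and 6464 in CTRL; 19.2% of all genes were shorter in both Znhit1_KO libraries. In all, 6 of the 33 were longer and 10 shorter. The counts of Sema4a, Sema6a and Robo2 lie between 127 and 586, so the assigned isoform mixture rests on few reads, and the deposited gene-level values do not say which isoforms were involved.

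**Figure D5:**
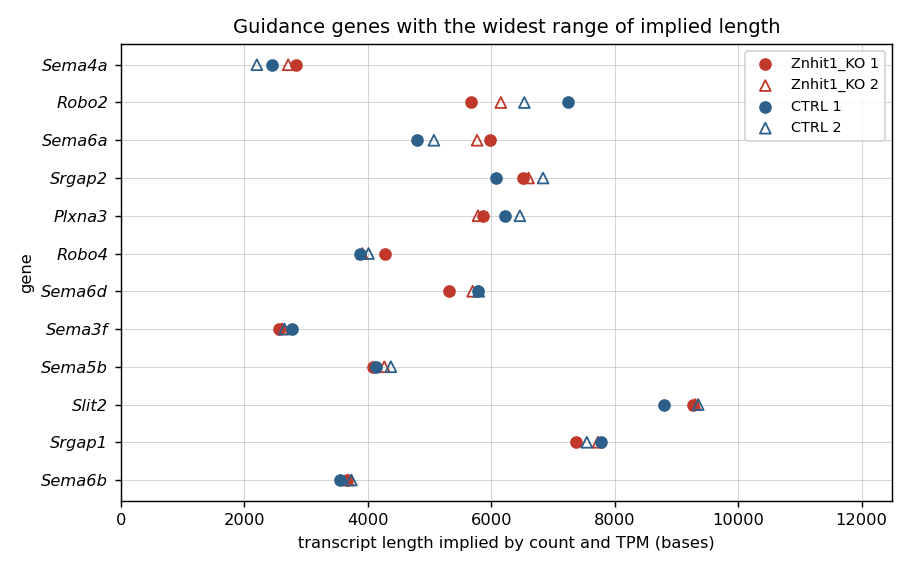
Transcript length in bases implied by estimated count and TPM, for the 12 guidance genes with the widest range over the 4 libraries, 1 gene per row; red marks Znhit1_KO, blue CTRL, circles replicate 1 and open triangles replicate 2. Sema4a and Sema6a lie at greater lengths in both Znhit1_KO libraries and Robo2 and Plxna3 at smaller ones, while Srgap1, at 7373 to 7770 bases, does not part by genotype.

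The guidance genes share a long structure that the selection by symbol did not use. Their median gene span was 115411 bases, against 22762 over the 16984 protein-coding genes tested, and 30 of the 41 were above that median. Their median exon length, counted over all annotated transcripts, was 7880 bases against 4108, and 39 of the 41 were longer. A given TPM of these genes therefore rests on more estimated counts than in a gene of usual length. Exons of 9 guidance genes overlap those of another annotated gene, of which only Sema4c, Plxna1 and Srgap1 have a partner with a mean of at least 100 estimated counts. No source used here says whether the libraries keep strand, and reads from opposite strands at these overlaps cannot be told apart.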

How the data were processed

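Poly(A) RNA of 4 testis libraries was analysed, 2 per genotype. The submitters' processing notes name StringTie 2.2.1, HISAT2 2.2.1, cutadapt 2.5, DESeq2 1.38.3 and the build mm10; their order, annotation and counting options were not found in the labels. The authors deposited estimated counts per gene, already whole numbers, whose totals (129531714 to 157790457) exceed the 40000000 reads stated per sample as a minimum; they are not tallies of reads, and the true depth is unknown. Per the file headers, the deposited comparison table holds TPM, a mean normalised signal, a log2 fold change, its standard error and statistic (scores) and p-values, all made by the authors.

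Estimated counts were tested with edgeR 4.0.16 in R 4.3.3 (TMM, filterByExpr, quasi-likelihood F-test, genotype as the only term, Benjamini-Hochberg at 0.05), over all genes. CPM used the TMM factors; SEs came from the F statistic; relative log2 CPM used a prior count of 2. DESeq2 1.42.0, limma 3.58.1 (voom), other scalings, no filter, a replicate block and leaving out each library were alternatives. The fit was checked on simulated counts. Of 55335 gene identifiers, 55154 were found without version in GENCODE M21. The 41 genes and all lists were chosen with earlier results of these data known. All members could be named; of each pathway list the 3 most abundant and those the authors marked, of marker lists the most abundant. No column of another sample was used.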

Additional observations from a re-analysis of the deposited data

How the results depend on the processing

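Over the alternative runs the median log2 change of the guidance genes lay between 0.0031 with Sertoli list scaling and 0.39 without CTRL replicate 1. The lower value is level with 0. With Sertoli list scaling 21 of the 41 genes had a log2 change above 0, against 36 with the TMM factors. Leaving out 1 library gave medians between 0.18 and 0.39, between 24 and 31 genes higher and between 4 and 8 lower than the other genotype without overlap, and between 0 and 754 edgeR calls over all genes, the highest without CTRL replicate 1. With 1 library left out, groups part without overlap more easily. In these runs between 30.5% and 39.9% of all genes were higher and between 32.2% and 37.4% lower. With all libraries those shares were 21.8% and 21.3%, so the counts of guidance genes cannot be set directly beside the main 22 and 3. The median of the guidance genes was 0.18 without Znhit1_KO replicate 1 and 0.22 without CTRL replicate 2. Sertoli list scaling left 4 genes higher and 10 lower without overlap, where 5.59% and 44.1% of all genes were. It changed the sign of 15 of 41 log2 changes. Scaling by total counts changed the sign of Robo1 only. With the authors' TPM in place of CPM, an alternative chosen after seeing the data, 19 genes were higher and 1, Plxnb1, lower. The shares of all genes on the TPM scale are not given here, so nothing can be read from these counts about the guidance genes. DESeq2 called 1024 genes over all.

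Libraries with the same replicate number are not stated to share an animal, litter or day. Deviations of the replicate 1 libraries from their group means correlated at 0.42 across genes, which are not independent. A fit with the replicate number as a block called 2737 genes (11.3%), 7 of them guidance genes (Plxnc1, Srgap1, Sema6c, Plxna4, Plxna1, Srgap3 and Sema4b), with a median log2 change of 0.35 over the 41 genes; no sign changed. With 2 libraries per group, the unblocked edgeR test called 0 of the 24116 genes. It thus did not call Znhit1 either, at a log2 change of -3.22. Its 0 calls among the guidance genes therefore cannot separate small differences from none.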
